A study of Mus musculus with 12 samples.

Results

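Alveolar type 2 epithelial cells (AEC2) of mice with the SP-C C185Gneo genotype, which the series design calls a hypomorphic control, were compared with AEC2 of SP-C WT mice. The comparison was chosen by the genotype field of the labels: 4 C185Gneo and 4 WT libraries of 12 in the series, over all 16080 measured genes. The remaining 4 libraries have the genotype SP-C C185G, in which the mutant protein is expressed, and their values are given beside each gene. All 3 genotypes were female mice of strain Bl6 at postnatal day 56, and all received tamoxifen at 200 mg/kg on 2 days before AEC2 isolation on day 7, so the controls carry the same treatment. The labels do not describe the make-up of the C185Gneo allele, the driver of recombination or the substrain. They also do not say whether the 4 libraries of a genotype came from separate animals, so each p-value measures the spread between these libraries, which may be technical. The titles of the C185Gneo libraries carry the name C185G, while those of genotype C185G carry another code, so the grouping rests on the genotype field alone.

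AEC2 make and recycle pulmonary surfactant, the film of lipid and protein that lowers surface tension in the air sacs, and they act as progenitors of the flat gas-exchanging type 1 cells. Surfactant protein C (SP-C), encoded by Sftpc, is made almost only in these cells. It begins as a membrane-spanning proprotein whose C-terminal BRICHOS domain assists folding in the endoplasmic reticulum (ER), and it is trimmed on the way to lamellar bodies, the organelles that store surfactant. Cysteine substitutions in the BRICHOS domain are known to cause misfolding of the proprotein. A hypomorphic allele is one that gives less product than the normal allele.

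Sftpc lies on the minus strand at chr14:70520949-70524081 (mm10). In the reference transcript the cysteine codon at the position that names C185G, in a 193-residue protein, sits at chr14:70521353-70521355, in exon 5 of 6. The end of the coding sequence, codons 177 to 193 at chr14:70521329-70521379, is shown because it holds the residue that names the alleles; capitals mark the codon that C185G changes.
Sftpc codons 177 to 193: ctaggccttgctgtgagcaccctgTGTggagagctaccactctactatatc

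Recovered read totals ran from 16328539 to 18234353 in the WT libraries and from 17009457 to 23444287 in C185Gneo. C185Gneo 1 was the deepest library and stood apart from the other 7 on the first principal component, which held 42.7% of the variance. Values without it are given beside a number of the results. AEC2 markers were at high levels in every library: Sftpb, for example, ran from 7215 to 8443 normalized CPM (read counts scaled to a common library size) over the 8 libraries. Markers of other lung cells were also present, among them the club cell gene Scgb1a1 at 2359 to 3381 CPM, the ciliated cell gene Foxj1 at 217 to 368 CPM and the leukocyte gene Ptprc at 6.16 to 9.04 CPM. In such bulk RNA, fewer cells of a type and less RNA per cell cannot be told apart.

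Sftpc fell 8.34-fold in C185Gneo. The WT libraries held 7454, 7674, 7530 and 7211 CPM, and the C185Gneo libraries held 1079.5, 793, 936 and 772 CPM. The C185G libraries lay between them at 2848, 2471, 2954 and 3059 CPM, and no library of one genotype overlapped another genotype. The means were 7467 ± 194 CPM in WT and 895 ± 143 CPM in C185Gneo (SD, n = 4 each), a fall by 3.07 on the log2 scale (95% interval -3.28 to -2.86, limma adjusted p = 5.93e-10). Sftpc ranked 3rd among all genes by CPM in WT, 90th in C185Gneo and 8th in C185G. It gave 0.717 to 0.747% of the counts in WT and 0.0756 to 0.108% in C185Gneo, which is 13305 to 25241 reads per C185Gneo library.

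Few other genes passed the test. Of 16080 genes, 87 (0.541%) passed a limma adjusted p of 0.05, termed called hereafter (Benjamini-Hochberg), 40 higher (0.249%) and 47 lower (0.292%) in C185Gneo. The same fit called 8852 genes (55%) in C185G against WT, 4388 higher (27.3%) and 4464 lower (27.8%), and 9298 (57.8%) in C185G against C185Gneo; these comparisons share libraries with the first. Without adjustment, 1534 genes (9.54%) had p under 0.05, 752 higher and 782 lower. In the fit without C185Gneo 1 that share was 7.61%, the background for list counts given without that library. The groups did not overlap for any of the 87, against 6.86% of all genes. A called change was beyond 1 on the log2 scale for 50 genes (0.311%), 25 in each direction, and beyond 2 for 6 higher and 11 lower. The median absolute log2 change over all genes was 0.088, and 0.336 in C185G against WT.

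Among the 100 genes most abundant in WT, Sftpc was the one called. The next largest change in that set was that of Lcn2, the siderophore-binding lipocalin 2, at -0.71 on the log2 scale, and it was not called (adjusted p = 0.267). The next most abundant called gene was Pigr, at a WT mean of 579 CPM. The precision for abundant genes was high: of 11539 genes with a mean of at least 5 CPM, 86.4% had a 95% interval wholly inside ± 0.5 and 96.9% inside ± 1. Below 5 CPM the median half-width of the interval was 0.507, against 0.188 above it, so changes of rare transcripts were measured less precisely.

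**Figure D1:**
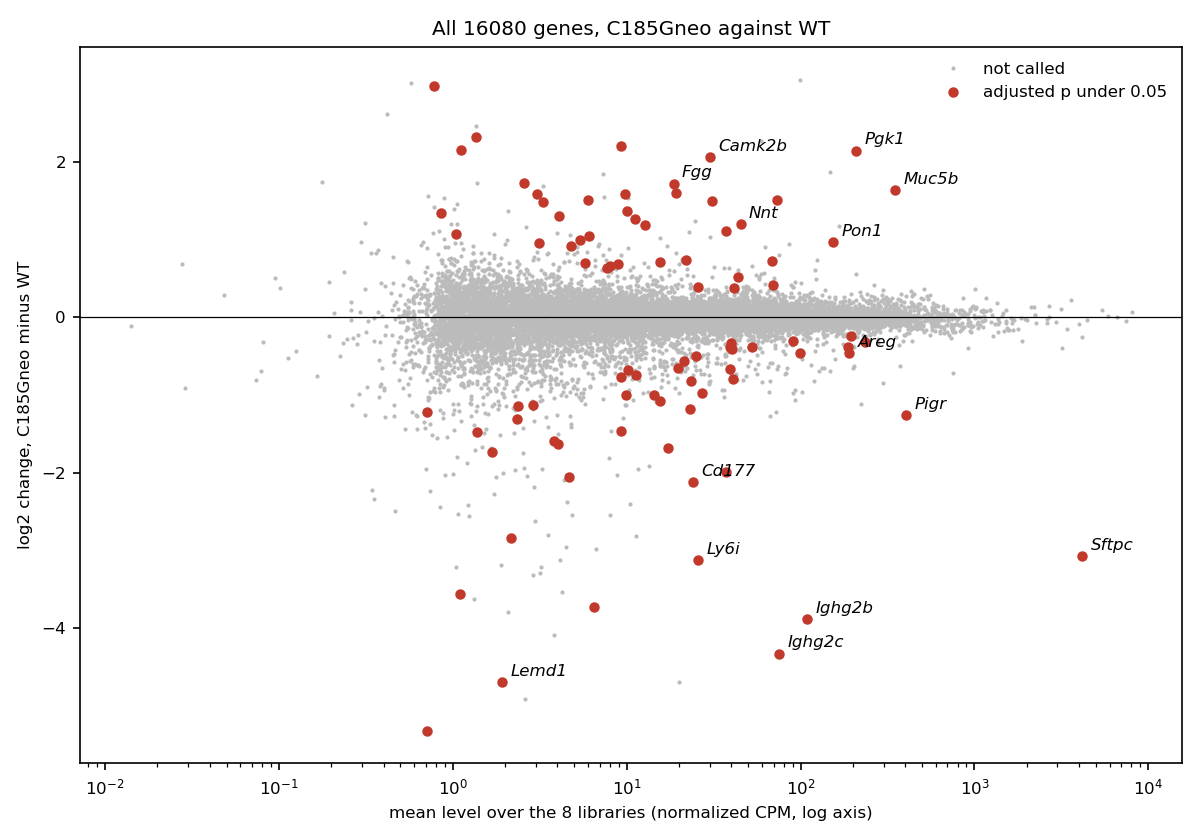
Each point is 1 of 16080 genes, with the mean level over the 8 libraries on a log axis (normalized CPM) and the log2 change of C185Gneo against WT; red points are the 87 called genes. Sftpc is the one called gene near the right edge, and most red points lie between 1 and 100 CPM.

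The count of calls leaned on single libraries. Leaving out WT 1, WT 3, WT 4, C185Gneo 1, C185Gneo 2 or C185Gneo 3 left 21 to 25 genes higher and 18 to 26 lower, while leaving out WT 2 gave 35 and 46 and leaving out C185Gneo 4 gave 31 and 47. In each of 8 such fits and 9 other settings, 35 of the 87 stayed called wherever they were tested (genes under 5 CPM are not tested in 1 setting), 18 higher and 17 lower, and all 87 kept their sign.

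Pgk1, the X-linked gene of the glycolytic enzyme phosphoglycerate kinase 1, whose promoter is also a common part of gene-targeting vectors, had the smallest adjusted p among the higher genes. It read 74.5, 73.4, 77.5 and 79.0 CPM in WT and 421, 299, 350 and 293 CPM in C185Gneo, with 147, 138, 133 and 152 CPM in C185G. Every C185Gneo library was above every other library. The rise was 4.48-fold, or 2.15 on the log2 scale (SE 0.0948, adjusted p = 3.41e-08), and it held in each setting run. No other of the 19 measured glycolysis genes was called; they ranged down to -0.19 (Hk2), and the list median was -0.02 against 0.00 for all genes. Pgk1 has processed pseudogenes that could take or lend reads.

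Camk2b, a subunit of the calcium/calmodulin kinase II complex, rose 4.16-fold. Its levels were 10.2, 14.6, 12.1 and 9.62 CPM in WT against 56.8, 44.9, 49.1 and 42.6 CPM in C185Gneo (log2 change 2.06, SE 0.204, adjusted p = 4.3e-04), and 11.7 to 25.1 CPM in C185G. Other genes of calcium and phosphoinositide signalling among the largest increases were Calml3, a calmodulin-like protein, and Plcd3, a phospholipase C. Calml3 went from 3.09 to 7.03 CPM over the WT libraries to 12.3 to 17.7 CPM in C185Gneo (log2 change 1.59), and Plcd3 from 21.9 to 24.8 to 40.01 to 59.3 CPM (log2 change 1.11). For all 3 genes the C185Gneo libraries lay above WT and above C185G.

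Ros1, an orphan receptor tyrosine kinase of epithelia, rose 2.82-fold. WT libraries held 16.6, 17.7, 18.7 and 12.1 CPM and C185Gneo libraries 58.9, 40.5, 46.0 and 38.1 CPM (log2 change 1.49, adjusted p = 0.00203). C185G libraries were at 8.13 to 13.4 CPM, a range that overlapped that of WT. Their log2 change against WT was -0.71 (adjusted p = 0.00561), opposite in sign to that of C185Gneo. Gc, the vitamin D-binding protein, had the same signs at a lower level, and no genotypes overlapped. It read 2.75 to 3.51 CPM in WT, 7.79 to 9.54 CPM in C185Gneo and 0.545 to 1.18 CPM in C185G. Its log2 change was 1.51 in C185Gneo and -2.04 in C185G, each against WT.

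Several secreted or surface proteins were higher. Muc5b, the main gel-forming airway mucin, read 116, 171, 169 and 241 CPM in WT and 575, 491, 577 and 463 CPM in C185Gneo, a 3.02-fold rise (log2 change 1.64, SE 0.24, adjusted p = 0.0141). C185G libraries were at 132 to 272 CPM, within and just above the WT range. Its call was lost without C185Gneo 1 (adjusted p = 0.0573) and without C185Gneo 3 (0.0591). Fgg, the fibrinogen gamma chain, read 7.15 to 10.5 CPM in WT and 22.1 to 39.1 CPM in C185Gneo (log2 change 1.72, adjusted p = 0.0323), and leaving out any 1 of the 8 libraries took it to 0.0531 to 0.114. Pgc, the aspartic protease progastricsin, rose from 5.07 to 5.79 CPM to 11.03 to 18.6 CPM (log2 change 1.37, adjusted p = 4.3e-04). Cd59a, which blocks assembly of the complement attack complex, rose from 8.25 to 10.7 CPM to 26.8 to 30.0 CPM (log2 change 1.59) and was also higher in C185G, at 17.0 to 30.9 CPM. Cd59a has a close paralog, so its reads may be split. Scara5, a scavenger receptor that binds ferritin, rose from 6.75 to 8.69 CPM to 14.5 to 19.9 CPM (log2 change 1.18).

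Nnt, the mitochondrial transhydrogenase that supplies NADPH and that the C57BL/6J substrain carries in partly deleted form, was higher in C185Gneo. WT libraries read 28.2, 27.6, 26.5 and 26.5 CPM, C185Gneo libraries 72.4, 64.0, 66.6 and 49.3 CPM, and C185G libraries 30.7, 15.6, 12.5 and 17.6 CPM. The WT libraries were close together, and C185G 1 stood above the other C185G libraries. The log2 change was 1.199 (SE 0.22, adjusted p = 0.0375), and the call was kept in 1 of 8 leave-one-out fits, that without C185Gneo 4; the other 7 gave 0.0905 to 0.132.

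**Figure D2:**
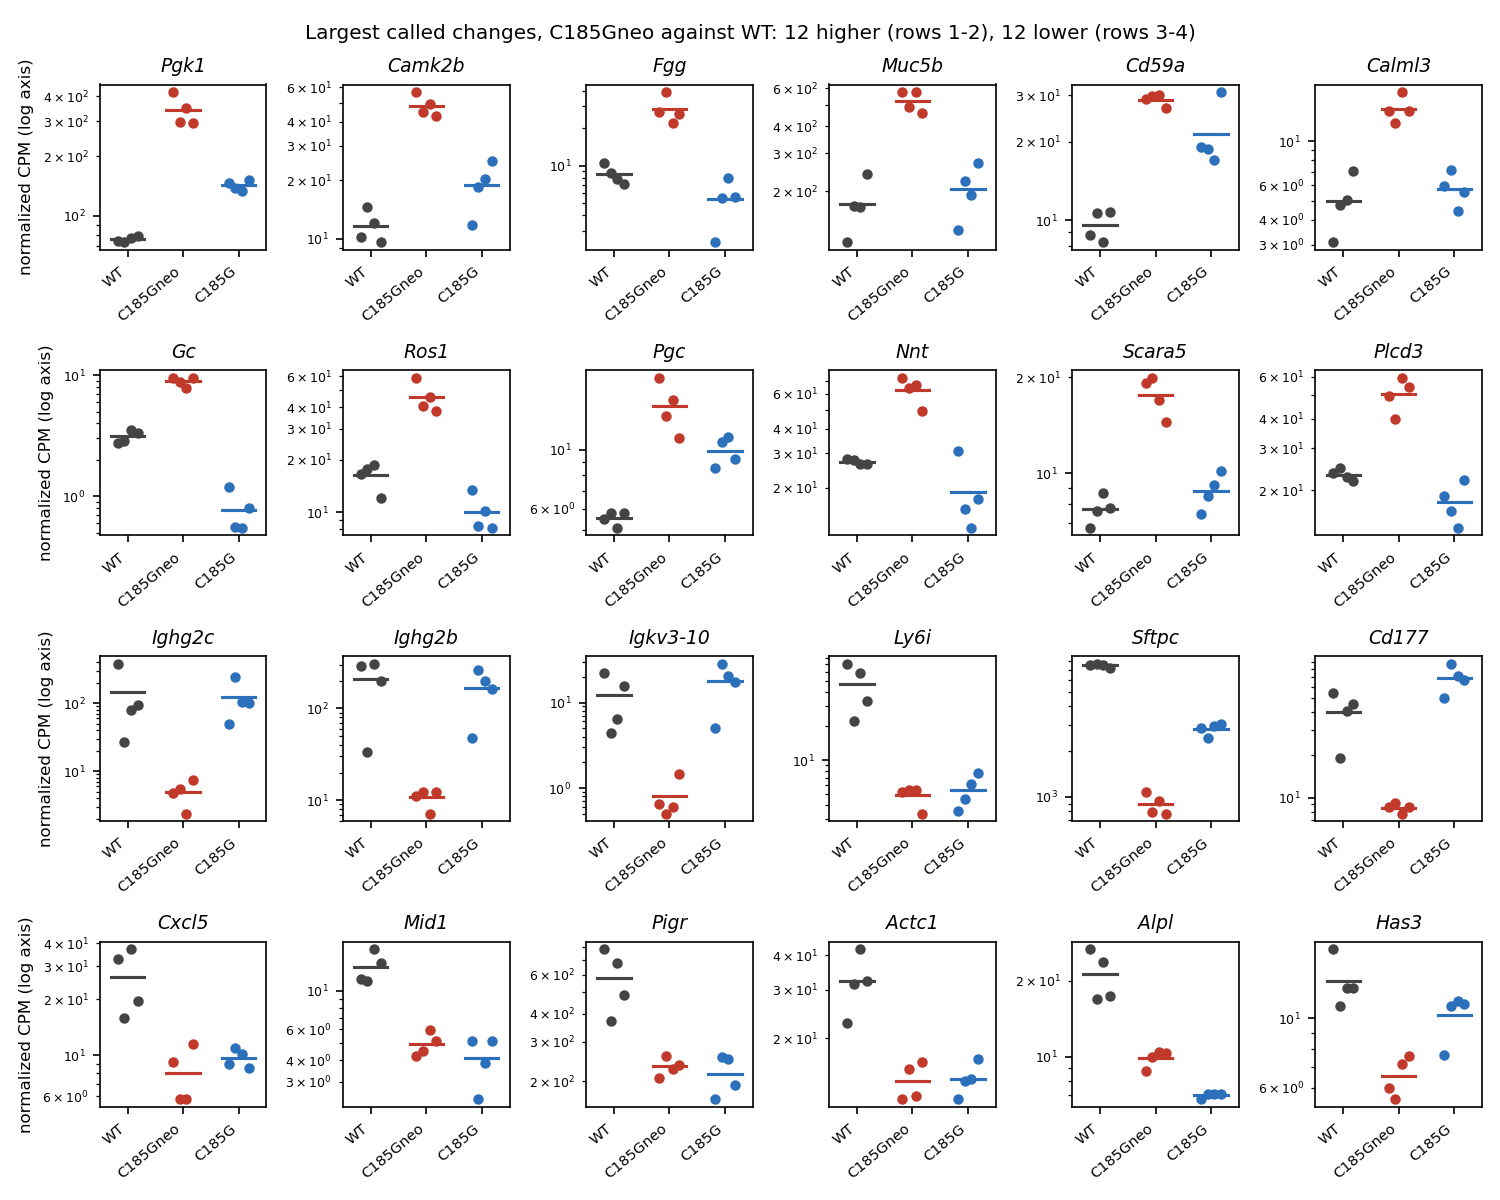
Points are single libraries of WT, C185Gneo and C185G on a log axis of normalized CPM, and lines are group means, for the 12 largest increases and 12 largest decreases named by rule. C185Gneo and WT do not overlap in any panel; Pgk1 sits at 293 to 421 CPM in C185Gneo against 73.4 to 79.0 CPM in WT.

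Of 119 immunoglobulin gene segments measured, transcripts of which are products of plasma cells, 3 were called lower and 1 higher, against 0.541% of all genes called. At an unadjusted p under 0.05 there were 44 lower and 3 higher, against 9.54% of all genes in either direction. The median log2 change was -1.29. The 3 called lower, Ighg2c, Ighg2b and Igkv3-10, had the largest decreases among called genes with a mean of at least 5 CPM. Ighg2b read 286, 33.8, 308 and 200.0 CPM in WT and 11.2, 12.4, 7.14 and 12.4 CPM in C185Gneo (log2 change -3.89, SE 0.719, adjusted p = 0.0494). Ighg2c read 385, 26.7, 79.0 and 93.2 CPM in WT and 4.79, 5.45, 2.38 and 7.37 CPM in C185Gneo (log2 change -4.33, adjusted p = 0.0369). Igkv3-10 read 4.41 to 22.2 CPM in WT and 0.50 to 1.45 CPM in C185Gneo (log2 change -3.72, adjusted p = 0.0323). In C185G these 3 genes were near WT, with log2 changes of 0.19, -0.14 and 0.59 for Ighg2c, Ighg2b and Igkv3-10. WT 2 was far below the other WT libraries in both Ighg genes and lowest in Igkv3-10. Ighg2b and Ighg2c were called in 1 of 8 leave-one-out fits each, that without WT 2, with adjusted p up to 0.176 and 0.143 in the others, and Igkv3-10 in 2. With voom weights the adjusted p were 0.206, 0.277 and 0.317. Igkv13-84, the segment called higher, was near the floor, with 3, 3, 4 and 1 reads in WT and 50, 21, 18 and 21 reads in C185Gneo (log2 change 2.98, adjusted p = 0.044), and its call was lost in each leave-one-out fit (0.0746 to 0.143). These chains have near-identical family members, so the assignment of reads among them is uncertain.

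Of 13 plasma cell genes, a list drawn up after the called genes were seen, none was called. Igkc, Ighm, Igha and Iglc2 in it are immunoglobulin genes that are also in the counts above. At an unadjusted p under 0.05 there were 6 in the lower direction, among them Igkc, Ighm, Igha and Iglc2. In the higher direction there was 1 (Derl3, an ER degradation factor, at 0.58). The share at that p was 53.8%, against 9.54% of all genes. Without C185Gneo 1 there were 3 and 0. The list holds Sdc1 and Xbp1, which epithelium also expresses. Its summed level ran from 1472 to 2263 CPM in WT, 1302 to 1593 CPM in C185Gneo and 1531 to 2136 CPM in C185G. Igkc, the kappa constant chain, had means of 311 CPM in WT and 135 CPM in C185Gneo (log2 change -1.11), and Jchain, which joins secreted antibody units, 87.8 and 43.3 CPM (log2 change -0.96). Jchain and Igkc were not called. The part of plasma cell RNA in the Ighg and Igkv values was not tested.

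Pigr, Cd177, Cxcl5 and Ly6i were also called lower. Pigr, the receptor that carries IgA across epithelia, read 779, 373, 679 and 485 CPM in WT and 207, 259, 228 and 237 CPM in C185Gneo, a 2.49-fold fall (log2 change -1.26, SE 0.218, adjusted p = 0.0337). C185G libraries were at 165 to 257 CPM, a range that overlapped that of C185Gneo and reached below it. The Pigr call was kept only without WT 2 among the leave-one-out fits and reached an adjusted p of 0.115 in the others. Cd177, a glycosylphosphatidylinositol-anchored neutrophil surface protein, fell from 53.9, 19.0, 40.3 and 45.4 CPM to 8.55, 9.22, 7.73 and 8.65 CPM (log2 change -2.12, adjusted p = 0.0058), and was 49.9 to 87.2 CPM in C185G. Cxcl5, a neutrophil-attracting chemokine, fell from 15.8 to 37.1 CPM to 5.77 to 11.4 CPM (log2 change -1.68, adjusted p = 0.0263). Without WT 1, WT 3, C185Gneo 1, C185Gneo 2 or C185Gneo 3 the Cxcl5 call was lost, at 0.0568 to 0.0946. Ly6i, a small Ly6-family surface protein, fell from 71.0, 22.2, 59.0 and 33.5 CPM to 5.26, 5.45, 5.47 and 3.37 CPM (log2 change -3.13, adjusted p = 0.00203). Ly6i was at 3.55 to 7.64 CPM in C185G, and it has close relatives in its gene cluster. WT 2 was the lowest WT library for each of Pigr, Cd177, Cxcl5 and Ly6i, as it was for the immunoglobulin chains.

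Alpl, tissue-nonspecific alkaline phosphatase, fell from 26.7, 16.9, 23.8 and 17.4 CPM to 8.72, 9.95, 10.4 and 10.3 CPM (log2 change -1.08, adjusted p = 0.0018). Has3, a hyaluronan synthase, fell from 10.9 to 16.6 CPM to 5.501 to 7.60 CPM (log2 change -0.996), with the call lost without C185Gneo 2 (adjusted p = 0.0541). Mid1, an X-linked ubiquitin ligase bound to microtubules, fell from 11.7, 11.4, 17.3 and 14.5 CPM to 4.19, 4.50, 5.95 and 5.11 CPM (log2 change -1.46, adjusted p = 0.00947). Mid1 crosses the boundary of the pseudoautosomal region of the mouse X chromosome, so some of its reads may match the Y chromosome. Gm47283, which the annotation places on the Y chromosome at chrY:90784738-90816464, was chosen after its values were seen. It read 45.9 to 78.5 CPM in the WT libraries of these female mice and 11.1 to 21.1 CPM in C185Gneo (log2 change -1.99, adjusted p = 0.00974). No other measured gene is placed on the Y chromosome by the annotation, and that placement does not show that the reads came from Y. Its reads cannot be placed on X or Y from these files.

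Actc1, cardiac alpha-actin, fell from 22.8, 31.6, 42.1 and 32.4 CPM to 12.02, 15.5, 12.4 and 16.4 CPM (log2 change -1.17, adjusted p = 0.00564). Heart muscle genes, listed after the called genes were seen, gave 4 called lower of 14 measured (Actc1, Ckm, Tnnc1 and Ldb3) and none called higher, against 0.541% of all genes called; some of these calls were known when the list was drawn up. In each fit that left out 1 WT or C185Gneo library, 1 or 2 of the 14 were called. Their summed level was 406 to 529 CPM in WT, 272 to 377 CPM in C185Gneo and 136 to 148 CPM in C185G. Myh7, the most abundant of them, was 143 ± 24.7 CPM in WT and 125 ± 33.4 CPM in C185Gneo (SD, n = 4 each) and was not called. The part of muscle RNA in the Actc1 value was not tested.

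**Figure D3:**
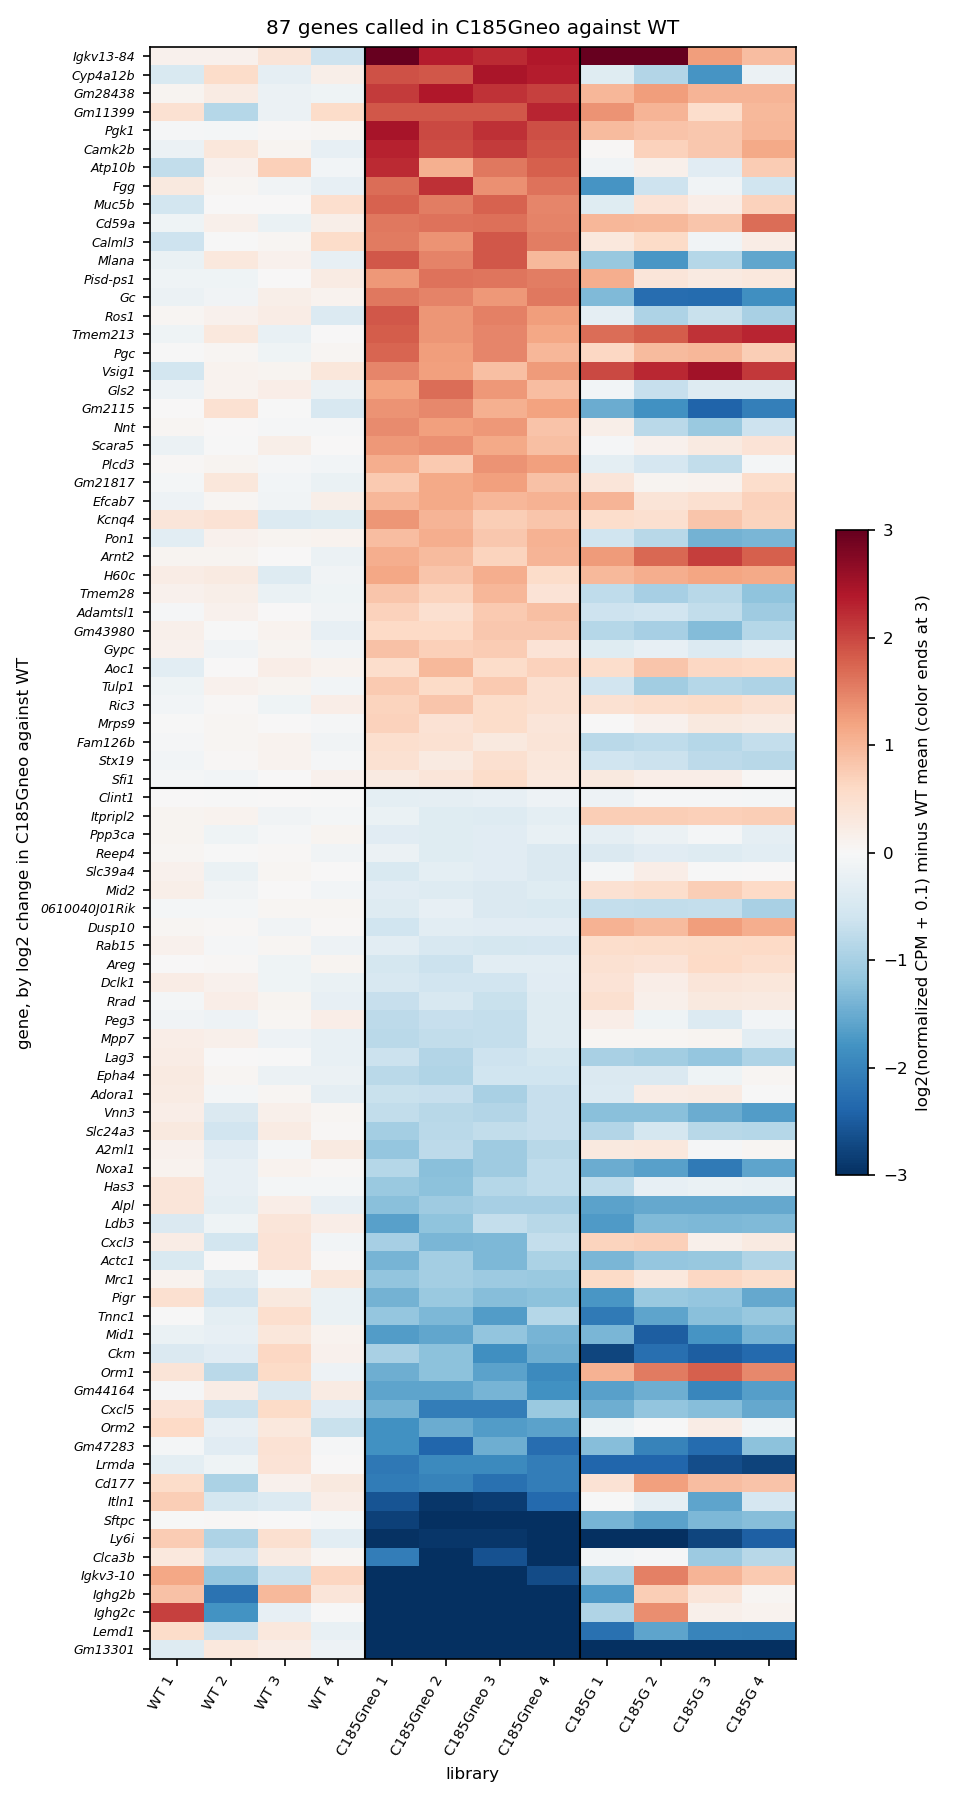
Color gives log2(normalized CPM + 0.1) minus the WT mean for the 87 called genes (rows, by log2 change) in the 12 libraries (columns), with the color scale ending at 3 on either side. The 40 higher and 47 lower genes part WT from C185Gneo by construction, and the C185G columns show rows of either color on both sides of the dividing line.

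The surfactant system other than Sftpc itself stayed close to WT. Sftpb, the protein essential for the surfactant film, read 7973, 8252, 7960.0 and 7215 CPM in WT and 8245, 8303, 8443 and 8007 CPM in C185Gneo; the log2 change was 0.07 (95% interval -0.06 to 0.21). Sftpa1, a collectin of innate defence, changed by 0.01 (-0.16 to 0.17) and its relative Sftpd by -0.07 (-0.22 to 0.07). Abca3, the lipid pump of lamellar bodies, had a log2 change of 0.14 (-0.11 to 0.40), and Nkx2-1, the lineage transcription factor, of -0.01 (-0.19 to 0.16). All 4 surfactant protein genes were called lower in C185G against WT, where Sftpb changed by -0.97. Of 18 other AEC2 markers, 0 were called in C185Gneo and the median log2 change was 0.03, whereas 17 were called lower in C185G (median -1.55). At an unadjusted p under 0.05 there were 3 of the 18: Chil1, a chitinase-like secreted protein, at -0.40, Lcn2 at -0.71, and Hc, complement C5, at 0.22.

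Of 20 genes for lamellar bodies and proSP-C processing, 1 was called, Pgc, described above, against 0.541% of all genes called. At an unadjusted p under 0.05 there were 3 higher and 1 lower (20%, against 9.54% of all genes). Napsa, the protease napsin A that cleaves the SP-B and SP-C proproteins, had means of 789 ± 94.7 CPM in WT and 935 ± 76.3 CPM in C185Gneo (log2 change 0.25, unadjusted p = 0.0159, not called). Cholesterol synthesis (27 genes, median 0.05, highest 0.50 for Pmvk) and fatty acid and phospholipid synthesis (28 genes, median 0.06) had no called member. In C185G against WT, 24 of the 27 and 22 of the 28 were called lower.

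The ER and protein quality control lists had no called member, and their medians ran from -0.06 to 0.10. Hspa5, the ER chaperone BiP, read 1244, 1171, 1228 and 1091 CPM in WT and 1269, 1155, 1267 and 1359 CPM in C185Gneo, a log2 change of 0.09 (95% interval -0.15 to 0.34). Xbp1, whose spliced product drives the IRE1 branch of the unfolded protein response, changed by -0.02 (-0.16 to 0.12), and Ddit3, the stress factor CHOP, by -0.32 (-0.63 to -0.02, adjusted p = 0.496). None of 24 IRE1-XBP1 targets was called, although 9 had an unadjusted p under 0.05, each of them in the higher direction (37.5% against 9.54% of all genes). Their median log2 change was 0.10, and 7 were left at that p without C185Gneo 1. Ssr2, a translocon-associated subunit, was the largest at 0.23 (adjusted p = 0.0687). ATF6 targets and ER chaperones (20 genes) gave 0 called, 5 higher and 1 lower at an unadjusted p under 0.05 (3 and 0 without C185Gneo 1) and a median of 0.09. Their share at that p was 30%, against 9.54% of all genes. The PERK-ATF4 stress response (34 genes, median -0.06), ER-associated degradation (21 genes, median 0.03) and cytosolic heat shock and chaperonin genes (22 genes, median -0.06) had none called either.

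The 32 proteasome subunits had the narrowest range of the 32 pathway lists. Their log2 changes ran from -0.09 (Psmc5) to 0.07 (Psmb3), with a median of 0.00, 0 called and 0 at an unadjusted p under 0.05. In C185G against WT all 32 were called higher, with a median of 1.36. The NRF2 targets of the oxidative stress response (25 genes, median -0.11) and the p53 targets (23 genes, median -0.01) had 0 called in C185Gneo, and 22 and 15 called higher in C185G. Cdkn1a, the cell cycle inhibitor p21, changed by -0.18 (95% interval -0.38 to 0.03).

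**Figure D4:**
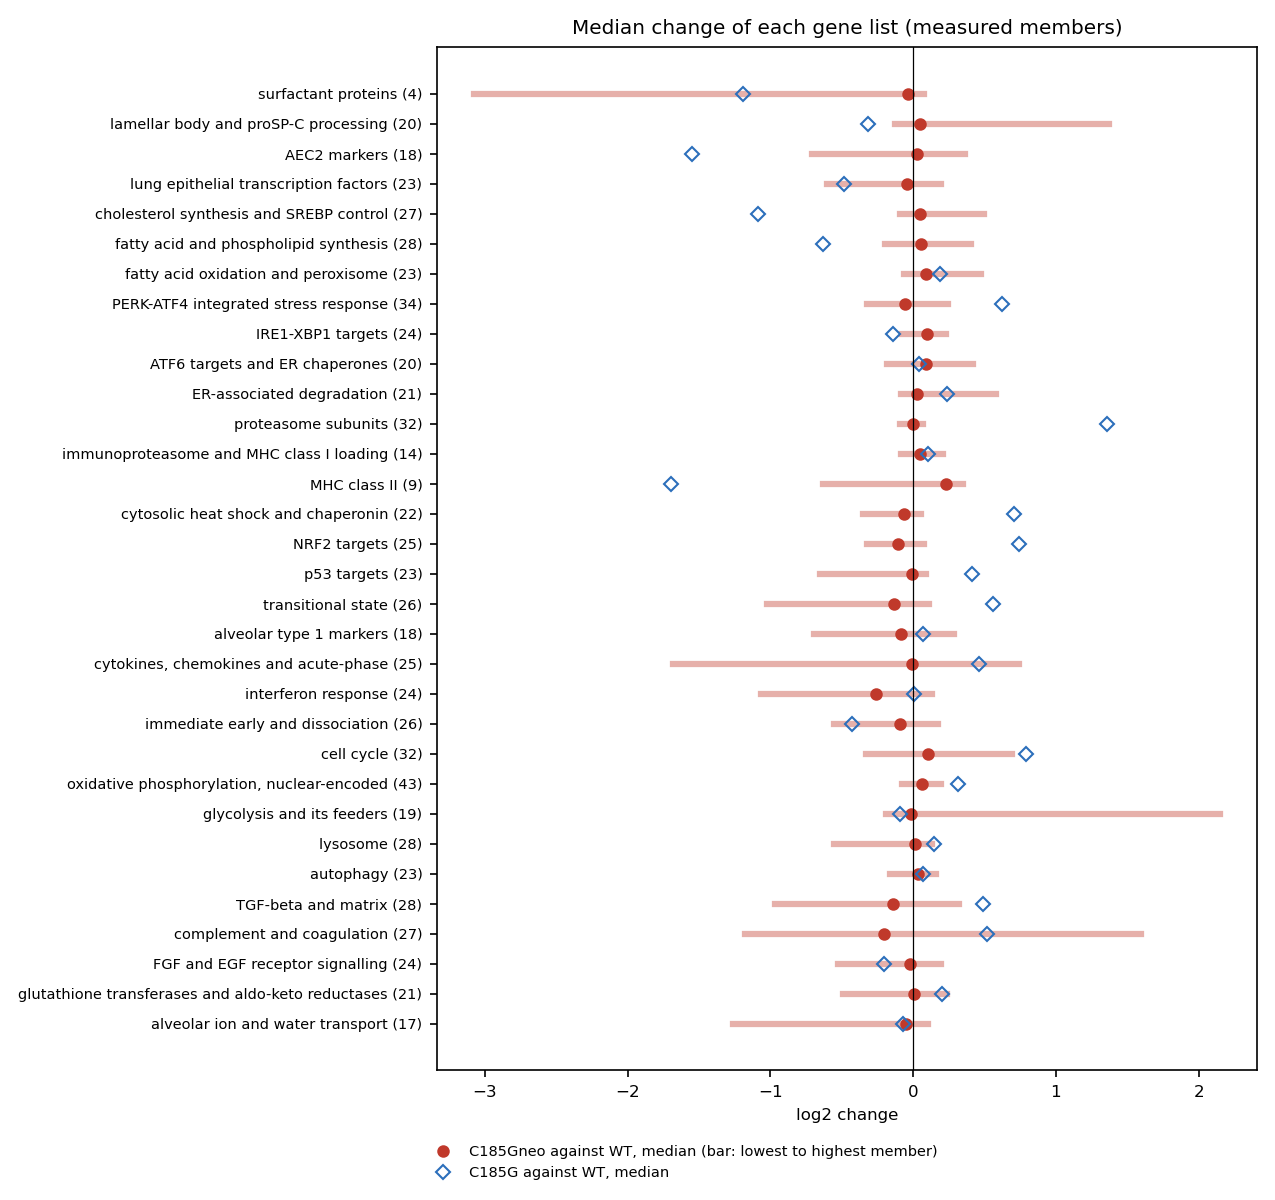
For each of 32 gene lists (measured members in brackets), red points give the median log2 change of C185Gneo against WT, bars the lowest to highest member, and open diamonds the median of C185G against WT. Proteasome subunits sit at 0.00 in C185Gneo and at 1.36 in C185G; the long bar at the top is Sftpc.

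Across the 32 pathway lists, 8 of 720 distinct genes were called (1.11%, against 0.541% of all genes): Pgc, Pgk1 and Cd59a higher, and Sftpc, Areg, Orm1, Cxcl5 and Cxcl3 lower. In 25 lists none was called. The lower calls in these lists numbered 1 without WT 1 or C185Gneo 1, 2 without C185Gneo 2 or C185Gneo 3, and 3 without WT 3 or WT 4. List members given below without a call were chosen after their values were seen.

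Areg, the EGF receptor ligand amphiregulin and the one called member of the 26 transitional cell state genes and of the 24 FGF and EGF receptor signalling genes (median -0.02), read 223, 223, 201 and 234 CPM in WT and 152, 141, 175 and 176 CPM in C185Gneo. The C185Gneo mean was 0.73 times the WT mean (log2 change -0.46, adjusted p = 0.0162), whereas C185G, at 289.8 to 335 CPM, was above WT. The Areg call was lost without WT 1, WT 4, C185Gneo 1 or C185Gneo 2, at 0.0549 to 0.0612. Krt8, a keratin of the transitional state, changed by -0.17 (95% interval -0.30 to -0.03, adjusted p = 0.406). In that list 8 of 26 had an unadjusted p under 0.05 (30.8%, against 9.54% of all genes), all in the lower direction, with a list median of -0.13. Without C185Gneo 1 there were 6. In C185G against WT, 20 of the 26 were called higher.

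Cytokine, chemokine and acute-phase genes (25 measured) had a list median of -0.01. They gave 3 called lower and none higher, against 0.541% of all genes called. Besides Cxcl5 these were Orm1, an acute-phase plasma protein, and Cxcl3, a relative of Cxcl5. Orm1 read 3.06 to 8.19 CPM in WT and 1.39 to 2.28 CPM in C185Gneo (log2 change -1.59, adjusted p = 0.0226), and 11.3 to 19.1 CPM in C185G. Cxcl3 read 2.15 to 4.24 CPM in WT and 1.17 to 1.92 CPM in C185Gneo (log2 change -1.15, adjusted p = 0.046). Both were called in 2 of 8 leave-one-out fits, with adjusted p up to 0.0865 and 0.157 in the others. At an unadjusted p under 0.05 there were 9 lower and 2 higher (44%, against 9.54% of all genes), and the highest member was Cxcl1, at 0.74. Without C185Gneo 1, none of the 25 was called, and 5 were lower and 1 higher at that unadjusted p. Orm1 and its neighbour Orm2 are near-identical, so their reads may be split.

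The interferon response list (24 genes) had 0 called and a median of -0.26. At an unadjusted p under 0.05 there were 7, all in the lower direction (29.2%, against 9.54% of all genes). Without C185Gneo 1 there were 2, and the share of all genes was 7.61%. Mx1, an antiviral GTPase, had the smallest p among the 7, at 5.67 ± 0.508 CPM in WT and 3.80 ± 0.999 CPM in C185Gneo (SD, n = 4 each). Its log2 change was -0.61 (adjusted p = 0.298). The 28 TGF-beta and matrix genes also had 0 called and a median of -0.14, with 8 in the lower direction at an unadjusted p under 0.05 (28.6%, against 9.54% of all genes). Without C185Gneo 1 there were 7 of these 28, and the median was again -0.14. MHC class II genes (9 measured, median 0.23) had 0 called. At the unadjusted p 3 were in the higher and 1 in the lower direction (44.4%), and without C185Gneo 1 none and 1. In C185G against WT 8 of the 9 were called lower, with a median of -1.69.

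Among the remaining lists, 27 complement and coagulation genes gave 1 called, Cd59a, against 0.541% of all genes called. Their median was -0.21, and -0.05 without C185Gneo 1. At an unadjusted p under 0.05 there were 3 higher and 4 lower (25.9%, against 9.54% of all genes). Without C185Gneo 1 there were 4 higher and 2 lower. Nuclear-encoded oxidative phosphorylation (43 genes, median 0.07), fatty acid oxidation (23, 0.09), cell cycle (32, 0.10), lysosome (28, 0.01) and autophagy (23, 0.03) had 0 called. Without C185Gneo 1 the cell cycle median was -0.01 and that of fatty acid oxidation 0.01. Lung epithelial transcription factors (23, -0.05), type 1 cell markers (18, -0.09), immediate early genes (26, -0.09), immunoproteasome and MHC class I loading (14, 0.05), glutathione transferases and aldo-keto reductases (21, 0.01) and alveolar ion and water transport (17, -0.05) had none called either. Without C185Gneo 1 the type 1 cell median was 0.03, and the immediate early genes in the lower direction at an unadjusted p under 0.05 went from 6 to 2. The share of all genes at that p, in either direction, went from 9.54% to 7.61%. Slc26a4, the anion exchanger pendrin, lay farthest from 0 in the transport list, with means of 95.4 CPM in WT and 38.5 CPM in C185Gneo (log2 change -1.26, unadjusted p = 5.98e-04, not called).

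Markers of other cell types were measured in 11 lists, and 2 of their 107 genes were called (1.87%, against 0.541% of all genes). The called ones were Muc5b in the club and goblet list and Mrc1, the macrophage mannose receptor, in the macrophage list. Mrc1 was near the floor, at 0.735 to 1.29 CPM in WT and 0.385 to 0.445 CPM in C185Gneo (log2 change -1.22, adjusted p = 0.0226), and was called in 2 of 8 leave-one-out fits. Of 18 macrophage markers 8 were measured, with a median log2 change of -0.25 (-0.09 without C185Gneo 1), and their sums were 159 to 202 CPM in WT and 137 to 170.2 CPM in C185Gneo. Of 19 lymphocyte markers 4 were measured, at sums of 26.2 to 37.9 and 26.7 to 32.9 CPM.

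The 14 club and goblet markers summed to 11370 to 15003 CPM in WT and 11573 to 14178 CPM in C185Gneo, so the groups overlapped; the sum is led by Cbr2, which is also an AEC2 marker. Within the list Muc5b, Bpifa1 and Scgb3a1 had an unadjusted p under 0.05, all 3 in the higher direction. Bpifa1, a secreted defence protein of the upper airway, read 8.52, 44.2, 17.3 and 28.5 CPM in WT and 159.6, 147, 200.1 and 193 CPM in C185Gneo, a log2 change of 3.06 with a wide interval (1.77 to 4.35, adjusted p = 0.0555). Scgb3a1, a secretoglobin, read 78.1 to 134 CPM in WT and 205 to 245 CPM in C185Gneo (log2 change 1.18, adjusted p = 0.112). Scgb1a1, the defining club cell secretoglobin, had a log2 change of -0.06 (-0.26 to 0.14), and Muc5ac, the goblet cell mucin, of 0.33 (-0.35 to 1.01). Bpifa1 and Scgb3a1 were chosen after their values were seen.

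Mesenchymal markers had a median log2 change of -0.67 over 17 genes, with 0 called. At an unadjusted p under 0.05 there were 8, all in the lower direction (47.1%, against 9.54% of all genes). Among them was the collagen gene Col3a1, at 131 ± 21.6 CPM in WT and 72.4 ± 32.8 CPM in C185Gneo (SD, n = 4 each). The list sums were 1415 to 1754 CPM in WT and 977 to 1457 CPM in C185Gneo, with C185Gneo 1 the lowest. Macf1, a gene of many cell types, leads these sums. Without C185Gneo 1 the median was -0.39, and 7 of the 17 were still lower at an unadjusted p under 0.05. Col1a1, Col1a2 and Col3a1 are also in the TGF-beta and matrix list, and the part of mesenchymal RNA in that list's values was not tested. Mesothelial markers (9 genes) had a median of -0.67, with 0 at an unadjusted p under 0.05; C185Gneo 1 summed to 709 CPM against 1074 to 1413 CPM in the other C185Gneo libraries and 1121 to 1345 CPM in WT, and without it the median was -0.08. Dendritic cell markers (7 genes, median -0.51) summed to 32.0 to 36.8 CPM in WT and 23.9 to 30.3 CPM in C185Gneo without overlap, and none was called. At an unadjusted p under 0.05, 4 were lower (57.1%, against 9.54% of all genes), and 1 without C185Gneo 1. Endothelial (16 genes, median 0.07), ciliated (16, -0.03), neutrophil and monocyte (9, -0.25), basal and neuroendocrine (5, -0.04, and 0.29 without C185Gneo 1), lymphocyte (4, -0.06) and erythrocyte and platelet (2, -0.28) markers had none called, and each pair of sums overlapped.

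**Figure D5:**
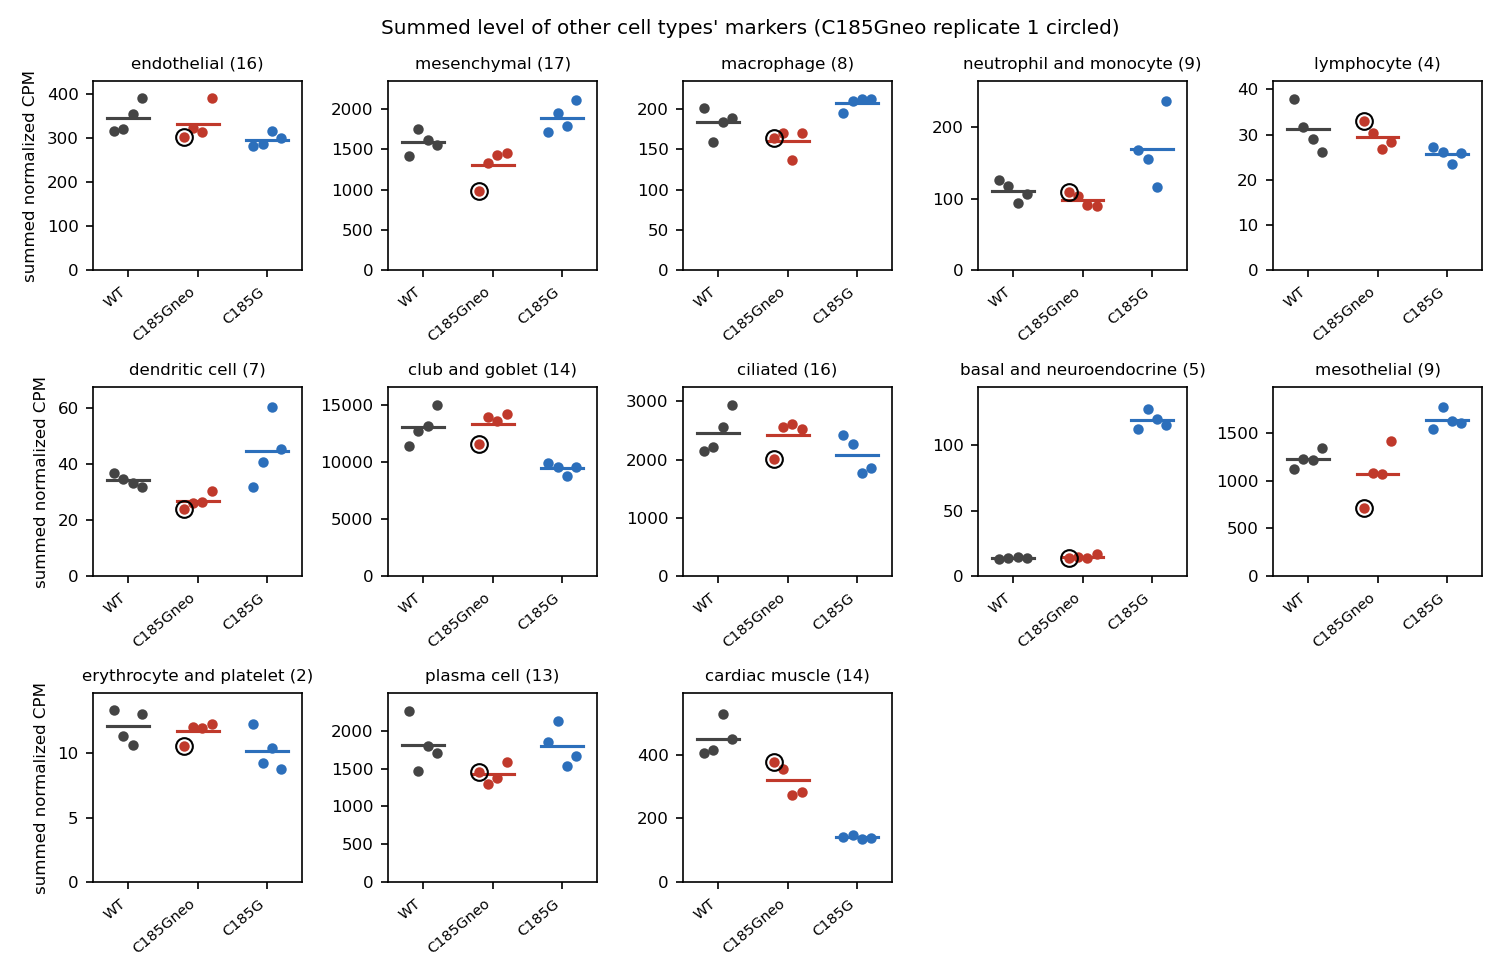
Points are the summed normalized CPM of each marker list in single libraries (measured members in brackets), lines are group means and the circled point is C185Gneo 1. C185Gneo 1 is the lowest C185Gneo library for mesothelial (709 CPM) and mesenchymal (977 CPM) markers, and cardiac muscle sums are 406 to 529 CPM in WT and 272 to 377 CPM in C185Gneo.

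Because Sftpc carries the edited allele, its neighbours on chromosome 14 were counted. Within 1 Mb, 1 of 27 measured genes was called (3.7%, against 0.541% of all genes), Reep4, a protein of the ER membrane whose start lies 24.3 kb from that of Sftpc. Reep4 read 46.1, 43.9, 45.5 and 41.3 CPM in WT and 39.4, 34.5, 34.7 and 32.5 CPM in C185Gneo (log2 change -0.33, adjusted p = 0.0484), and the call was lost in 7 of 8 leave-one-out fits, all but that without C185Gneo 1. At an unadjusted p under 0.05 there were 7 of the 27 (25.9%, against 9.54% of all genes), all in the lower direction: Reep4, Bmp1, Hr, Slc39a14, Fam160b2, Loxl2 and Polr3d. Bmp1, a procollagen protease, had a log2 change of -0.36 (unadjusted p = 0.00265, not called), and the adjacent Lgi3 of 0.12. The median over the 27 was 0.00. Within 10 Mb, 2 of 127 genes were called (1.57%), Scara5 higher and Reep4 lower, and the median log2 change was 0.00. Chromosome 14 as a whole had 6 of 535 genes called (1.12%): Sftpc itself, Reep4, Scara5, Lrmda, and the heart muscle genes Tnnc1 and Ldb3. Unlike the counts within 1 Mb and 10 Mb, this count includes Sftpc.

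Of the 59 called genes outside the naming rule, 38 had a mean of at least 5 CPM and 21 were below it, and those named here were chosen after their values were seen. Lemd1, a LEM-domain protein, fell from 91, 39, 79 and 49 reads in the WT libraries to 5, 3, 1 and 1 reads in C185Gneo (log2 change -4.69, adjusted p = 2.67e-05), with 13 to 24 reads in C185G. Gm13301, a transcribed pseudogene on chromosome 4 with copies nearby, had 18 to 31 reads in each WT library, 1 read in all C185Gneo libraries together and 0 in C185G. Further pseudogenes rose at adequate depth: Gm28438 on chromosome 1, from 48 to 68 reads to 239 to 335 reads (log2 change 2.21, adjusted p = 3.35e-07), and Pisd-ps1 on chromosome 11, from 34.6 to 44.7 CPM to 94.0 to 116 CPM (log2 change 1.52, adjusted p = 9.49e-04). Pon1, the lactone hydrolase paraoxonase 1, rose from 82.8, 113, 109 and 112 CPM to 196, 219, 181 and 214 CPM (log2 change 0.97, adjusted p = 0.0323), and Adamtsl1, an extracellular matrix protein, from 48.0 to 56.7 CPM to 72.6 to 97.2 CPM. Lrmda, a melanocyte differentiation factor encoded on chromosome 14, fell from 6.06 to 9.81 CPM to 1.58 to 1.90 CPM (log2 change -2.05, adjusted p = 4.91e-05), and was 0.986 to 1.35 CPM in C185G. Of all 87 called genes, 10 were predicted genes, pseudogenes or without a symbol.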

How the data were processed

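RNA from AEC2 was sequenced in 12 libraries; per the labels' protocols, Dispase-treated lungs were dissociated with DNase I, plastic-adherent cells were removed and CD45-positive cells were depleted with beads. STAR, limma and the mm10 build appear in the submitters' processing notes; how reads were counted, and with which strand setting, is not given in the sources used here. The deposited values are log2 values whose spacing shows that the authors used whole counts plus 0.5, times 1 factor per library. Whole counts were recovered for 100% of values (tolerance 1e-06), and 1 read equals 0.0428 to 0.0616 CPM in the 8 libraries. Normalized CPM are those scaled counts over their mean total.

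Symbols and coordinates came from GENCODE M21 (GRCm38), which named 16017 of 16080 identifiers; the printed sequence is from its Sftpc transcript. All 12 libraries entered 1 fit in limma 3.58.1 (R 4.3.3; lmFit, eBayes with trend and robust), genes being called where the two-sided p, adjusted over all genes (Benjamini-Hochberg), was under 0.05, and intervals being 95%. The fit was tested on simulated data. Genes were named by rule: Sftpc, the 12 largest changes in each direction among called genes with a mean of at least 5 CPM and no overlap (predicted genes and pseudogenes left out), called list members (at most 4 a list by p) and list-defining genes. The comparison, 32 pathway lists and 11 marker lists were chosen with earlier results of these data known; 2 marker lists were added after the called genes were seen. Alternatives were no trend, quantile, library-total and median-of-ratios scaling, a minimum of 5 CPM, 8 libraries only, a replicate block, quality weights, voom weights and each library left out.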

Additional observations from a re-analysis of the deposited data

Results flagged for a closer look

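Dixon's test for a library far from the others of its group was run on 100 groups of 4, and 4 stood apart; chance gives about 1 in 20. Ly6i was at 3.37 normalized CPM in C185Gneo 4, against 5.26 to 5.47 CPM in the other C185Gneo libraries. Igkv3-10 was at 1.45 CPM in C185Gneo 4, against 0.50 to 0.64 CPM in the others. The ciliated marker sum was 2005 CPM (2004.5) in C185Gneo 1, against 2522 to 2609 CPM in the others. WT 4 had 16328539 counts in total, against 18156882 to 18234353 in the other WT libraries.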

How the results depend on the processing

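The 40 higher and 47 lower calls moved with the setting. Library quality weights gave 80 and 82. The fit without the mean-variance trend gave 28 and 26. Leaving out 1 library gave 21 to 35 higher and 18 to 47 lower. For the 720 pathway genes (3 higher, 5 lower), lower calls were 2 without the trend, 2 with only the 8 libraries, 3 with voom weights and 8 with quality weights, which also gave 6 higher; leave-one-out gave 3 to 4 higher and 1 to 6 lower. Near Sftpc, within 10 Mb, the 1 lower call was lost (0) without the trend, with quantile, library-total or median-of-ratios scaling, with only the 8 libraries and with voom weights, and leave-one-out gave 0 to 1. The cause was not tested. Sftpc kept its direction and call in every setting, from -3.17 to -2.67. Of the values of single named genes, 487 kept their side of the threshold and 105 kept direction only. The 487 include changes of sign near 0 in genes that were not called. Nkx2-1 went from -0.015 to 0.047 without C185Gneo 4, and Xbp1 from -0.017 to 0.026 without WT 1. No called gene reversed. Low counts widen the intervals of rare transcripts.

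The replicate numbers did not clearly pair the libraries: same-numbered libraries had correlations of 0.27, 0.05, 0.01 and 0.23, and only number 1 correlated best with itself. With 4 libraries per genotype, this check cannot decide whether same-numbered libraries shared a batch. With the replicate block there were 36 higher and 27 lower calls, 2 lower pathway genes and 0 lower genes near Sftpc.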
